A study of Mus musculus with 104 samples.

Results

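The genes described here encode, in the cell nucleus, the subunits of the mitochondrial respiratory chain and of ATP synthase. They were chosen by gene name alone: complex I from names that start Nduf with a, b, c, s or v and a number, complex II from the Sdh genes a to d, complex III from Uqcr, complex IV from Cox4 to Cox8, and complex V from Atp5. Of 45808 gene rows, 84 met these patterns, after 4 pseudogenes were left out. The members divide into 37 genes of complex I, 4 of complex II, 8 of complex III, 18 of complex IV and 17 of complex V. The name patterns also take in a few genes that are not structural subunits, such as the supercomplex assembly factor Cox7a2l and the ATP synthase coupling factor B gene Atp5s. Ndufa4, counted here by its name with complex I, is known as a subunit of complex IV, and Atp5sl, counted with complex V, as an assembly factor of complex I. The cytochrome c1 subunit of complex III, Cyc1, carries another kind of name and is not among them.

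The content of single neurons was drawn into patch pipettes from slices of mouse substantia nigra and sequenced as full-length cDNA by Smart-seq2. The titles name 38 libraries experiment and 66 control, and all of them are labelled dopaminergic neurons of the substantia nigra. The series' design text describes picking neurons of the substantia nigra pars compacta that bore α-Syn-6H-EGFP inclusions, aggregates of a fluorescently tagged α-synuclein that report the Lewy pathology of Parkinson disease. What the control neurons were is not given in the labels, and for neither group is a genotype, strain, age, promoter or treatment given. A pipette may hold only a portion of a cell, and no label ties a library to an animal. Each group was therefore 1 sample, no p-value was computed, and intervals on levels and ratios cover counting error only.

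The respiratory chain passes electrons from NADH through complex I, or from succinate through complex II, to coenzyme Q, then through complex III and cytochrome c to complex IV, which reduces oxygen. Complexes I, III and IV pump protons across the inner membrane, and complex V uses the gradient to make ATP. All but complex II also contain subunits encoded by the mitochondrial genome, so that both genomes supply the parts of 1 machine. Dopaminergic neurons of the substantia nigra are autonomous pacemakers with a high energy demand, and toxins that block complex I cause parkinsonism.

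Experiment libraries held 116567 to 3094036 gene counts with a median of 960027, and control libraries 153770 to 2577694 with a median of 1039850. The median number of genes detected was 7354 in the first and 8548 in the second. The dopaminergic label was checked with 10 markers, of which 9 had a median above 0 in experiment libraries and 10 in control libraries. Their summed level was 637 to 24943 CPM (counts per total, scaled to the same sum in each library; median 17473) in experiment libraries and 2213 to 35824 CPM (median 23002) in control libraries. The dopamine transporter Slc6a3 was below 500 CPM in 4 experiment libraries and 3 control libraries, which by this 1 marker go against the label. The summed level of the 10 markers was 637 to 4099 CPM in these experiment libraries and 2213 to 8810 CPM in these control libraries. Among the other cell types, 1 of 11 astrocyte markers (Slc1a2), 1 of 10 microglia markers, 4 of 10 oligodendrocyte markers and 3 of 5 markers of GABAergic neurons had a median above 0, the same genes in both groups. No endothelial or blood marker did, and Cldn5 of endothelial cells had no count in any library.

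The titles and the order of the records divide the libraries into 4 record blocks, which the labels do not call batches. They held 7, 14, 12 and 5 experiment libraries and 10, 21, 18 and 17 control libraries. Blocks 1 and 2 form title set 1, with the lower title numbers, and blocks 3 and 4 form title set 2. Experiment library 21, in block 2, stood apart. It held 4.58% of the group's counts but 7.53% of its member counts, it had the highest member share of all 104 libraries, and 4.00% of its counts lay in cytosolic ribosomal protein genes against an experiment median of 1.22%. Values without it are given beside the main medians and counts and beside several of the members described.

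The sequences just before the transcription start of 7 members are printed below, so that members with different ratios can be compared at their promoters. The first 3 hold the palindromic core motif of NRF1, nuclear respiratory factor 1, and the next pair the motif of GABPA, also known as nuclear respiratory factor 2. The last pair, Ndufb11 and Ndufb2, are members that were lower in every record block, and they hold neither motif nor that of YY1 in the window searched; 22 of the 65 expressed members with a window hold at least 1 of the 3 motifs. Each run is the 120 bases before the start on the gene's own strand, 5′ to 3′, from RefSeq on GRCm38.p6, with the motif in capitals on whichever strand it was found. Uqcr11 also holds an NRF1 match that spans its start and is not marked.
Atp5g2, chr15:102671048-102671167, minus strand: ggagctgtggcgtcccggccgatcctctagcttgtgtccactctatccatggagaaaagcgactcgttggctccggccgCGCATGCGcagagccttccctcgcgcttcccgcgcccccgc
Atp5k, chr5:108434400-108434519, minus strand: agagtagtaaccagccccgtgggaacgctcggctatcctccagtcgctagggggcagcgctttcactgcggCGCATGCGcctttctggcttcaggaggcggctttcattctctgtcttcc
Ndufa11, chr17:56717642-56717761, plus strand: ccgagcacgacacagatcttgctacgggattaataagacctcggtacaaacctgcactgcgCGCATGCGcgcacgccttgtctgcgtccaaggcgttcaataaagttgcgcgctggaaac
Atp5h, chr11:115419920-115420039, minus strand: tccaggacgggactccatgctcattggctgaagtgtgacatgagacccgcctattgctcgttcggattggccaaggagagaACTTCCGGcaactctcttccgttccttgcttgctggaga
Uqcr11, chr10:80406822-80406941, minus strand: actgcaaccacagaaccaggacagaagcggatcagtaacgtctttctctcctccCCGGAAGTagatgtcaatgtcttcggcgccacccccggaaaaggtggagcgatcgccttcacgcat
Ndufb11, chrX:20617620-20617739, minus strand: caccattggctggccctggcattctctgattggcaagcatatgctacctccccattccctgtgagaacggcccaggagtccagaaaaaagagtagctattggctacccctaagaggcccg
Ndufb2, chr6:39592445-39592564, plus strand: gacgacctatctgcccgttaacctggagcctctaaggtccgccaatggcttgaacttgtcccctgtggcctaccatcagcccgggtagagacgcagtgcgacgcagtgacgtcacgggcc

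Respiratory chain transcripts took a slightly larger share of the counts in experiment neurons, in every complex. Genes counted as expressed reached 10 CPM in the counts pooled over all libraries and had a count in no fewer than 25% of the libraries of at least 1 group. This was met by 76 of the 84 members and by 9113 genes in all. The median ratio of pooled CPM, experiment over control, was 1.16 over the 76 members, a log2 ratio of 0.22 (95% order-statistic interval over the members 0.14 to 0.24), against -0.03 over all expressed genes. With each library weighted equally, the members' median log2 ratio was 0.13 and that of all expressed genes -0.02. Without experiment library 21, the pooled median was 0.11.

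By both weightings, 56 of the 76 members (73.7%) were higher in experiment libraries, where 40.9% of all expressed genes were. By the same rule 9 members (11.8%) were lower, where 45.8% of all expressed genes were, and 11 differed in direction between the weightings. Without library 21 the counts were 51 higher and 15 lower, where 41.6% of all expressed genes were higher. The differences were small: 6 members were higher and 1 was lower by at least 0.32 on the log2 scale by both weightings, against 17.5% and 22% of all expressed genes. At that size, then, fewer of the members than of all genes were apart in either direction. In all 4 record blocks, 21 members (27.6%) had a pooled ratio above 1, against 6.56% of all expressed genes, and 3 members (3.95%) a ratio below 1, against 11.4%.

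**Figure D1:**
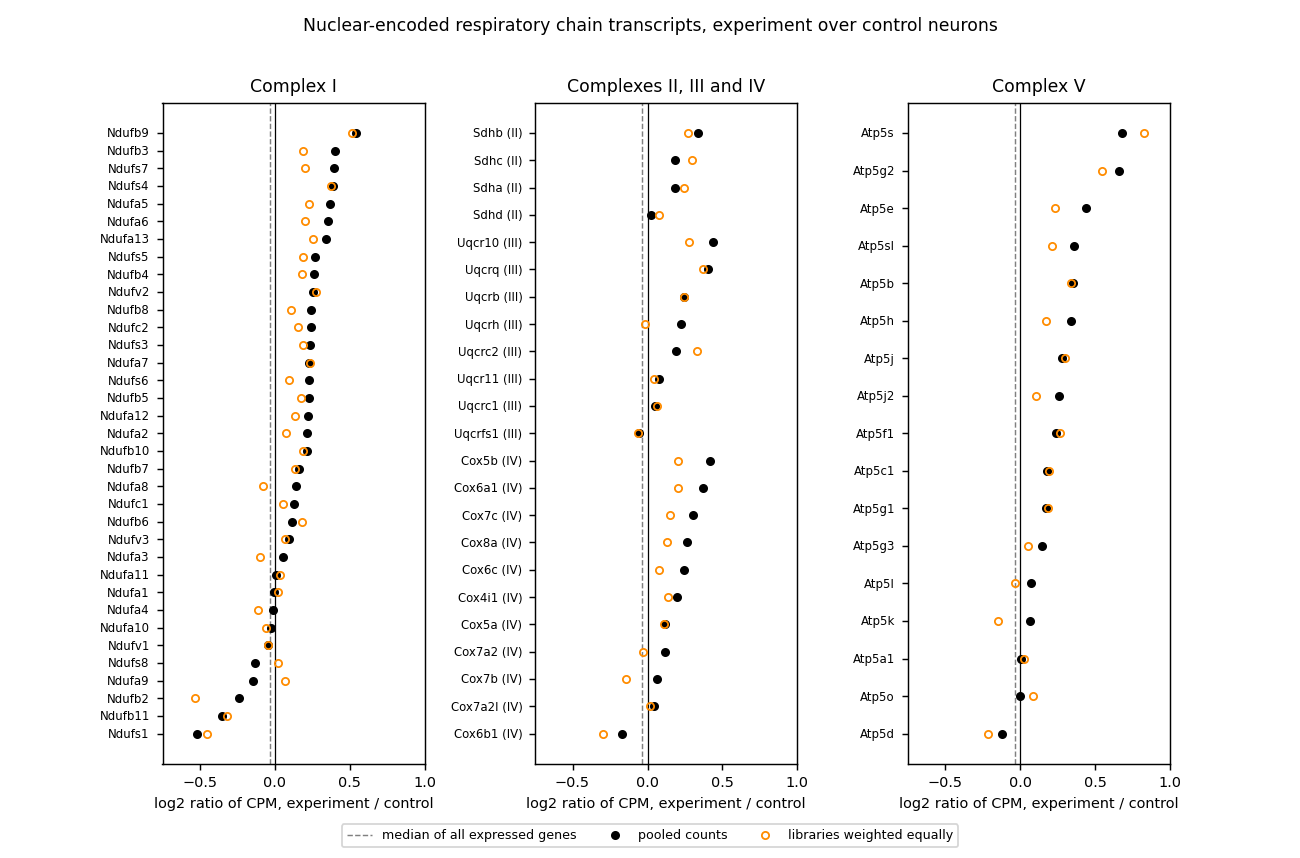
Log2 ratio of CPM, experiment over control, of 75 of the 76 expressed members, ordered within each complex. Black points are pooled counts, open points the ratio of mean CPM with libraries weighted equally, and the dashed line is the median of all 9113 expressed genes at -0.03. Most members lie right of the line, from -0.52 for Ndufs1 to 0.68 for Atp5s.

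The median log2 ratio of pooled CPM was 0.22 in complex I (36 expressed members), 0.18 in complex II (4), 0.21 in complex III (8), 0.20 in complex IV (11) and 0.24 in complex V (17). Members higher by both weightings numbered 25 in complex I, 4 in II, 6 in III, 8 in IV and 13 in V, and members lower 6, 0, 1, 1 and 1 in the same order. Without library 21 the medians were 0.11, 0.20, 0.15, 0.07 and 0.17 for complexes I to V, so that those of complexes I and IV were the most reduced. With libraries weighted equally they were 0.13, 0.26, 0.15, 0.11 and 0.19, with complex II the highest. The order of the complexes was not tested.

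Complex I, or NADH dehydrogenase, has a core of 7 nuclear-encoded subunits, among them those that carry the flavin and the iron-sulphur clusters, surrounded by accessory subunits. Ndufs1, the largest core subunit and holder of several iron-sulphur clusters (GRCm38, chromosome 1, 63143596 to 63176833, minus strand), was the lowest member of all. It ranged from 0 to 374 CPM with a median of 109.8 in experiment libraries, and from 0 to 448 CPM with a median of 170.5 in control libraries. The ranges overlapped almost wholly, but 26 of 38 experiment libraries lay below the control median. Its pooled level was 122.2 against 175.3 CPM, a ratio of 0.697 (0.675 to 0.721), with 0.732 by equal weights. It was lower in every block, at 0.714, 0.820, 0.810 and 0.290.

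The rest of the core differed less. Ndufs7, which holds the cluster nearest to coenzyme Q, had the highest pooled ratio of the core at 1.31, but its block ratios were 2.70, 0.985, 1.09 and 1.29. Ndufs3, a subunit of the peripheral arm, had a pooled ratio of 1.18 and was higher in all 4 blocks, yet 23 of 38 experiment libraries lay below the control median. The NADH-oxidising module showed both directions, since the flavin subunit Ndufv1 had a ratio of 0.970 and its partner Ndufv2 1.19. Ndufs8, a ferredoxin-like subunit, differed in direction between the weightings at 0.912 and 1.02.

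Among the 29 expressed accessory genes named for complex I, Ndufa4 included, 21 were higher by both weightings and 4 lower. Ndufb9, a membrane-arm subunit of the LYR family (chromosome 15, 58933756 to 58939488, plus strand), had the largest ratio of the complex. It ranged from 82.2 to 817 CPM with a median of 329 in experiment libraries, and from 54 to 606 CPM with a median of 217 in control libraries. The ranges overlapped, but 28 of 38 experiment libraries lay above the control median. The pooled ratio was 1.45 (1.42 to 1.49), 1.43 by equal weights and 1.36 without library 21, with block ratios of 1.17, 1.63, 1.37 and 2.08.

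Ndufs4, an accessory subunit whose loss in mice gives a model of Leigh syndrome, had ratios of 1.31 pooled and 1.29 by equal weights, but 0.931 in block 4. Ndufb3, a small membrane-arm subunit, had 1.32 pooled, 1.14 by equal weights and 1.23 without library 21. Ndufb11, an X-linked membrane-arm subunit, was lower in every block, at a pooled ratio of 0.782 (0.753 to 0.812). By equal weights its ratio was 0.802, and without library 21 it was 0.740 pooled and 0.779 by equal weights. Ndufb2, another membrane-arm subunit, was lower in every block too, with median levels of 17.1 CPM in experiment libraries and 25.7 CPM in control libraries and ratios of 0.845 pooled and 0.692 by equal weights. These were, with Ndufs1, the only 3 expressed members below 1 in all 4 blocks. Ndufa9, at the foot of the peripheral arm, differed in direction between the weightings at 0.905 and 1.05.

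Complex II, succinate dehydrogenase, is also an enzyme of the tricarboxylic acid cycle and is encoded wholly in the nucleus. All 4 of its genes were higher by both weightings. Sdhb, the iron-sulphur subunit, had the largest pooled ratio at 1.27 (1.24 to 1.29), with 0 to 945 CPM (median 455) in experiment libraries and 168 to 722 CPM (median 377) in control libraries. Sdha, the flavoprotein, ranged from 144.1 to 1533 CPM (median 567) in experiment libraries and from 71.1 to 1063 CPM (median 510) in control libraries, a ratio of 1.13. The groups overlapped for both, with 23 and 22 of 38 experiment libraries above the control median. The membrane anchors had pooled ratios of 1.14 for Sdhc and 1.01 for Sdhd, and all but Sdhd were above 1 in all 4 blocks. Complex II was the complex in which most experiment libraries, 28 of 38, exceeded the control median of the summed level.

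Complex III, which passes electrons from coenzyme Q to cytochrome c, had 6 of its 8 genes higher by both weightings. Its core protein genes Uqcrc1 and Uqcrc2 had pooled ratios of 1.04 and 1.14, and 1.04 and 1.26 by equal weights. The Rieske iron-sulphur protein Uqcrfs1 was the 1 lower gene, at 0.960 pooled and 0.958 by equal weights. The small subunits ran from 1.06 for Uqcr11, which had 0.992 without library 21, to 1.35 for Uqcr10, and Uqcrh differed in direction between the weightings at 1.17 and 0.987. Without library 21, Uqcrh had 1.03 pooled and 0.913 by equal weights. Uqcrq, which binds next to cytochrome b (chromosome 11, 53427922 to 53430831, minus strand), ranged from 52.6 to 912 CPM with a median of 294 in experiment libraries. In control libraries it ranged from 0 to 640 CPM with a median of 237. Experiment libraries above the control median numbered 30 of 38, the most for any member together with Atp5b. Its ratio was 1.32 pooled, 1.29 by equal weights and 1.28 without library 21, and block ratios ran from 1.11 to 1.53. Uqcr10, another small subunit, had ratios of 1.35 pooled, 1.21 by equal weights and 1.28 without library 21, and it was above 1 in all 4 blocks, with 28 of 38 experiment libraries above the control median.

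Complex IV, cytochrome c oxidase, is built around a catalytic core that the mitochondrial genome encodes, with nuclear subunits around it, several of which have tissue isoforms. Of its 11 expressed members, 8 were higher by both weightings and only Cox6b1 was lower. Cox5b, a zinc-binding subunit, had the highest pooled ratio at 1.34 but 1.15 by equal weights and 1.23 without library 21, which held 12.5% of its experiment counts. Cox6a1, the broadly expressed form of subunit 6a, ranged from 109.6 to 894 CPM (median 365) in experiment libraries and from 111.6 to 692 CPM (median 312) in control libraries. In 26 of 38 experiment libraries it exceeded the control median, its pooled ratio was 1.29, and it was above 1 in all 4 blocks, as was Cox5b.

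Cox4i1, the common form of the regulatory subunit 4, had the highest level per kilobase of transcript of all members, at 2172 CPM per kilobase in experiment libraries and 1895 in control libraries. Its pooled ratio was 1.15 with all libraries and 1.05 without library 21, which alone supplied 12.6% of its experiment counts. Cox6b1, which faces the intermembrane space, ranged from 94.2 to 545 CPM (median 265) in experiment libraries and from 152.5 to 1060 CPM (median 328) in control libraries. Its pooled ratio was 0.889 and 26 of 38 experiment libraries lay below the control median, but its block ratios were 0.996, 1.08, 0.805 and 0.710. Cox7a2, the common form of subunit 7a, had 1.08 pooled, 0.981 by equal weights and 1.01 without library 21. Cox8a, the common form of subunit 8, had 1.20, 1.10 and 1.13 in the same order. Cox7a2l, which aids supercomplex assembly, had 1.03 pooled and 1.01 by equal weights.

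The 8 members below the expression threshold were Ndufa4l2 and 7 isoforms of complex IV subunits. Cox8b, the heart and muscle form, and Cox8c, a testis form, had no count in any library. Taking 3 libraries as the limit that a count of 0 allows, up to 7.89% of experiment and 4.55% of control libraries could hold one. This limit takes each library as an independent draw, although libraries of the same animal cannot be identified. Cox4i2, the lung form of subunit 4, had 0 counts in experiment and 5 in control libraries. Cox6b2 had 44 and 14 counts, Cox7b2 1 and 69, and Ndufa4l2, a paralogue of Ndufa4 known to respond to hypoxia, 0 and 60, with experiment first in each pair. Single libraries held most of these: experiment library 3 held 24 of the experiment counts of Cox6b2, and control library 62 held 59 of the control counts of Cox7b2. For Ndufa4l2, control libraries 62 and 8 held 33 and 26 counts. None of these genes had a count in more than 4 libraries of a group.

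Cox6a2 and Cox7a1, both known as the heart and skeletal muscle forms of their subunits, were seen in more libraries. Cox6a2 (chromosome 7, 128205435 to 128206387, minus strand) had 166 counts over 9 of 38 experiment libraries (23.7%) and 1 count in 1 of 66 control libraries (1.52%). Libraries of the same animal cannot be identified, so they are not independent draws and no interval is given on these shares. Its highest level was 70.6 CPM, in experiment library 55, which held 43.4% of the group's Cox6a2 counts. After each library was thinned to 400000 counts, 9 of 34 experiment and 1 of 60 control libraries held a count. The positive experiment libraries came from blocks 2, 3 and 4. Of the markers of GABAergic neurons, Gad1 had a median of 40.3 CPM in the 9 experiment libraries with a Cox6a2 count and 42.9 CPM in the other 29, against 5.49 CPM in control libraries. The median of Pvalb was 13, 28 and 7.61 CPM in the same order. Single libraries varied widely around these medians. In the 9 libraries Gad1 ranged from 1.96 to 433 CPM and Pvalb from 0 to 216 CPM. In the other 29 they ranged from 0 to 691 and from 0 to 546 CPM, and in control libraries from 0 to 376 and from 0 to 390 CPM. Experiment library 49 had the highest level of both among the 9, with Slc6a3 at 285 CPM. The part of these markers in the result was not tested.

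Cox7a1 (chromosome 7, 30184144 to 30186078, plus strand) had 76 counts over 9 of 38 experiment libraries (23.7%) and 330 counts over 28 of 66 control libraries (42.4%). After thinning the counts were 7 of 34 and 26 of 60 libraries. The pooled ratio was 0.426 (0.328 to 0.548), but experiment library 4 alone held 57.9% of the experiment counts, and in its block 1 the ratio was 2.27, against 0.0730, 0.444 and 0.123 in blocks 2 to 4. Both genes were under the 10 CPM threshold in the pooled counts, and a lack of counts in a pipette sample does not show a lack of transcript.

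Complex V, ATP synthase, consists of the catalytic F1 head, a ring of subunit c in the membrane, and a peripheral stalk that joins them. Of its 17 members, all expressed, 13 were higher by both weightings and only Atp5d was lower. In the F1 head, Atp5b, the catalytic beta subunit (chromosome 10, 128083273 to 128090391, plus strand), ranged from 584 to 4928 CPM with a median of 2166 in experiment libraries. In control libraries it ranged from 636 to 3293 CPM with a median of 1653. In 30 of 38 experiment libraries it exceeded the control median. The ratio was 1.28 (1.27 to 1.29) pooled, 1.26 by equal weights and 1.28 without library 21, and block ratios ran from 1.23 to 1.47.

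The partner of Atp5b in the hexamer stood at nearly the same level in both groups. Atp5a1, the alpha subunit, stood at 1529 pooled CPM in experiment libraries and 1524 in control libraries, a ratio of 1.00 (0.993 to 1.01), and 21 of 38 experiment libraries exceeded the control median. The gamma subunit Atp5c1, which forms the rotating shaft, had a ratio of 1.13 and was above 1 in all 4 blocks. The epsilon subunit Atp5e, also above 1 in all 4 blocks, had 1.36 pooled, 1.17 by equal weights and 1.24 without library 21. The delta subunit Atp5d had 0.919 pooled and 0.862 by equal weights. Alpha and beta subunits are present in equal numbers in the assembled enzyme, while their transcripts stood at 619 and 1195 CPM per kilobase in experiment libraries and at 617 and 937 in control libraries.

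Subunit c, which forms the proton-driven ring, is made from 3 genes that encode the same mature protein behind different import sequences. All 3 were higher by both weightings. Atp5g2 (chromosome 15, 102662864 to 102672352, minus strand) ranged from 0 to 192.8 CPM with a median of 54.6 in experiment libraries and from 0 to 177.8 CPM with a median of 41.4 in control libraries. The ranges were nearly the same, and 25 of 38 experiment libraries lay above the control median. Its ratio was 1.58 pooled, 1.46 by equal weights and 1.55 without library 21, and it was above 1 in all 4 blocks, from 1.08 to 1.88. Atp5g1 had a ratio of 1.13 and Atp5g3 1.11, and both were below 1 in block 4, at 0.827 and 0.958. These 3 genes are similar where they encode the mature protein and have processed pseudogenes, and the rule for counting reads with several possible origins is not known here, so the division of reads among them is uncertain.

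In the peripheral stalk, Atp5f1, Atp5h and Atp5j were higher in all 4 blocks with pooled ratios of 1.18, 1.27 and 1.22, while Atp5o had 0.998. The small membrane subunits Atp5j2, Atp5k and Atp5l had 1.20, 1.05 and 1.05, the last 2 with the opposite direction by equal weights. Without library 21 these 3 had 1.07, 0.929 and 0.957. Atp5s, coupling factor B (chromosome 12, 69724950 to 69744660, plus strand), had the largest pooled ratio of all expressed members at 1.60 (1.52 to 1.69), with 1.77 by equal weights. It was also the lowest of the 75 expressed members with a known transcript length, at 43.7 CPM per kilobase in experiment libraries and 27.2 in control libraries. It ranged from 0 to 320 CPM (median 47.9) in experiment libraries, of which 28 of 38 lay above the control median, and from 0 to 168.7 CPM (median 31.3) in control libraries.

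The members that were apart by at least 0.32 on the log2 scale by both weightings and on the same side in all 4 blocks were therefore Ndufb9, Uqcrq, Atp5b, Atp5g2 and Atp5s, which were higher, and Ndufs1, which was lower. These are 6.58% and 1.32% of the expressed members, against 4.82% and 8.88% of all expressed genes. Without library 21, Ndufb11 also passed the cut of size on the lower side, which 21.9% of all expressed genes then passed. For every one of the 76 expressed members the ranges over experiment and control libraries overlapped. The number of experiment libraries above the control median ran from 12 to 30 of 38, and 46 of the 76 members had most experiment libraries above it. By that rule 22% of all expressed genes did, or 24.7% of those with a control median above 0.

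**Figure D2:**
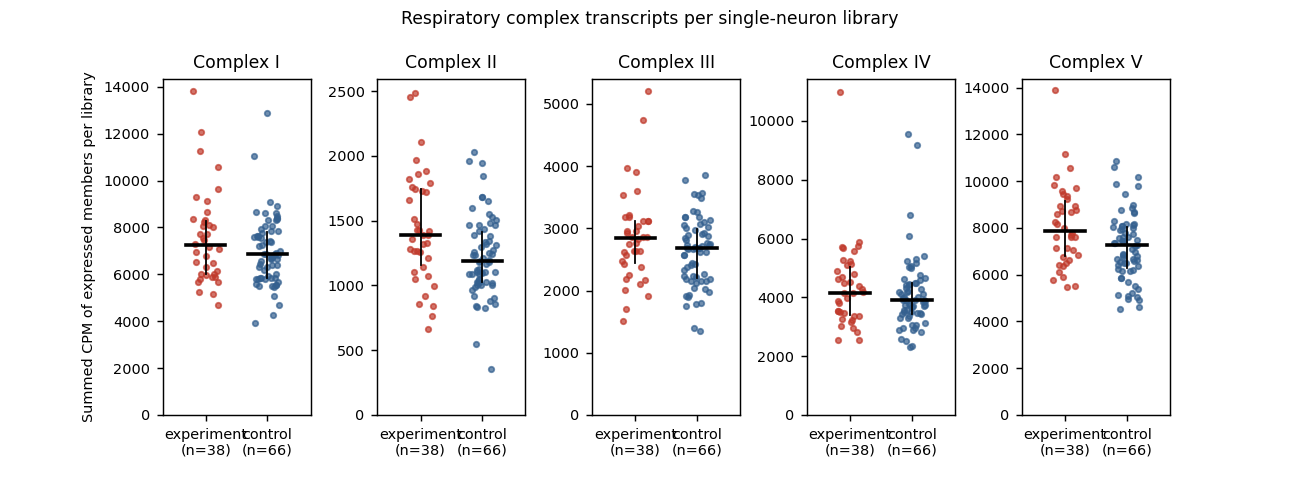
Summed CPM of the expressed members of each complex in every library, with the median (thick line) and the quartiles (thin line); each panel has its own axis from 0. Experiment medians lie slightly above control medians in all 5 complexes, and the groups overlap throughout; experiment library 21 is the highest point in complexes I and IV.

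At the level of the library, the 76 members together took 1.63% to 4.12% of the gene counts in experiment libraries, with a median of 2.34%, and 1.38% to 3.67% in control libraries, with a median of 2.20%. In 24 of 38 experiment libraries the share exceeded the control median. In the pooled counts the shares were 2.50% and 2.21%, a ratio of 1.131 (1.128 to 1.134), or 1.10 without library 21. Median summed levels in experiment and control libraries were 7237 and 6848 CPM for complex I, 1388 and 1187 for II, 2839 and 2686 for III, 4157 and 3901 for IV, and 7887 and 7249 for V. The experiment libraries above the control median numbered 22, 28, 22, 22 and 24 in complexes I to V. A share of counts does not tell more transcript of these genes from less RNA of other genes, and these cannot be told apart here. The ERCC spike-ins, RNA added to each library from outside the cell, took 0.0390% to 2.71% of all counts in experiment libraries (median 0.421%) and 0.0338% to 1.93% in control libraries (median 0.251%). In 30 of 38 experiment libraries their share exceeded the control median, and in block 4 all 5 experiment libraries lay above every control library. Among the libraries of either group at or below the overall median of this share, the members' median log2 ratio was 0.34, against -0.09 for all expressed genes. This subset took in a smaller portion of the experiment than of the control libraries. It holds experiment library 21 and no experiment library of block 4, and its value without library 21 was not computed. The part of RNA input in the members' share was not tested.

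Detection of the expressed members was nearly complete in both groups. This follows in part from the expression filter, which had left out 8 members. The median library of either group detected 76 of the 76 expressed members, and the poorest detected 68 in experiment and 71 in control. The experiment libraries held fewer genes with a count in all, as given above, and after thinning a median of 6916 against 8460.

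The 5 complexes varied together across neurons to different degrees. Over the 38 experiment libraries, Spearman's rho between summed levels of complexes was highest for I and III at 0.70, and over the 66 control libraries for I and IV at 0.75. Over the 10 pairs of complexes the median rho was 0.46 in experiment and 0.44 in control libraries. Complex II was the least tied to the others, with rho of -0.02 to complex IV and -0.03 to complex V in experiment libraries, and 0.21 and 0.14 in control libraries. The levels come from the same libraries and share their totals, so these values are descriptions.

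The members' share also moved with other features of the libraries. Cytosolic ribosomal protein genes, whose transcripts are short as well, had a median log2 ratio of 0.51, and their share of counts correlated with the members' summed level at rho 0.46 in experiment and 0.35 in control libraries. For the summed dopaminergic markers, rho was -0.41 in experiment and 0.21 in control libraries. The summed glial markers had a median of 1662 CPM (170 to 14774) in experiment and 974 CPM (144 to 10118) in control libraries, with rho to the members of 0.07 and -0.07. Summed markers of GABAergic neurons had a median of 140.0 CPM (0 to 1750) in experiment and 51.1 CPM (0 to 1038) in control libraries. The part of the ribosomal and GABAergic levels in the result was not tested. Without the libraries highest in glial markers the members' median log2 ratio was 0.24, and without the libraries low in Slc6a3 it was 0.21.

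**Figure D3:**
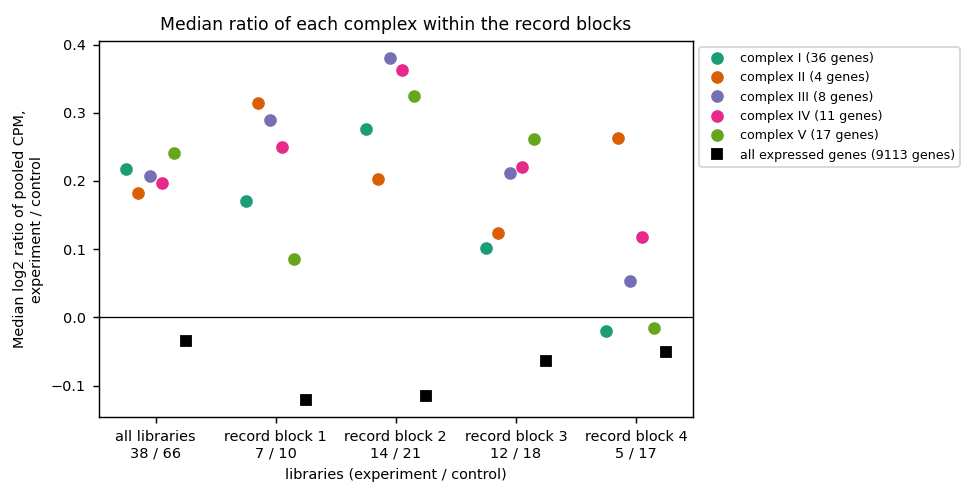
Median log2 ratio of pooled CPM, experiment over control, for the expressed members of each complex (circles) and for all 9113 expressed genes (squares), over all libraries and within each record block; library numbers are given under the axis. The complexes lie above all genes in every block, and in block 4 complexes I and V lie at -0.02 and -0.02.

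The difference was present within the record blocks but varied in size. The median log2 ratio of all members was 0.15, 0.29, 0.15 and 0.05 in blocks 1 to 4, against -0.12, -0.11, -0.06 and -0.05 for all expressed genes. In block 4, with 5 experiment and 17 control libraries, complexes I and V each stood at -0.02, complex III at 0.05, complex IV at 0.12 and complex II at 0.26. By title set the members' median was 0.23 in set 1 and 0.12 in set 2. Complex IV differed most between the sets, with 0.32 in set 1 and 0.09 in set 2, and complex V least, with 0.24 and 0.22. Because the labels name no batch and no animal, differences between animals and between groups cannot be told apart.

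**Figure D4:**
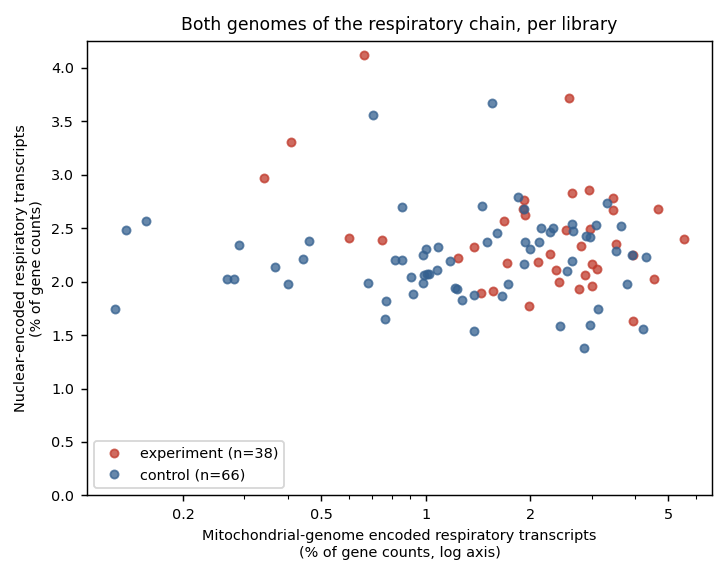
Share of gene counts from the 76 expressed nuclear members (vertical axis) against the share from respiratory genes of the mitochondrial genome (horizontal, log axis), 1 point per library. The nuclear share stays mostly between 1.5% and 3% over the whole horizontal range, along which experiment libraries lie mostly to the right.

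The mitochondrial genome's own part of the chain showed a larger difference. Of 13 protein-coding genes of the mitochondrial genome, 9 passed the expression filter. All 9 were higher by both weightings, against 40.9% of all expressed genes, and the median of their log2 ratios was 0.56. Their levels were very uneven. Pooled CPM in experiment and control libraries was 6214 and 4534 for mt-Co1, but 13.7 and 12.5 for mt-Co3 and 21.1 and 8.47 for mt-Nd3. The shares below may therefore cover the mitochondrial transcripts only in part. Together the 13 genes took 0.341% to 5.54% of the gene counts in experiment libraries (median 2.48%) and 0.127% to 4.31% in control libraries (median 1.41%), and 31 of 38 experiment libraries lay above the control median. Spearman's rho between the nuclear and mitochondrial shares was -0.18 over experiment and 0.10 over control libraries. The ratio of nuclear to mitochondrial counts per library had a median of 0.974 in experiment and 1.56 in control libraries. The gap in the pooled mitochondrial share was widest in block 1, at 1.67% against 0.318%, where control libraries were lowest, and narrowest in block 4, at 2.84% against 2.29%. Reads from mitochondrial genes can also come from nuclear copies of mitochondrial DNA, and their assignment is not described in the labels.

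Genes that act around the chain were read from further lists. Their counts stand beside the 40.9% of all expressed genes that were higher by both weightings and the 45.8% that were lower. Of 13 expressed assembly factors of complex I, 11 were higher by both weightings and 2 lower, and the median log2 ratio was 0.29. By equal weights this median was 0.14, and in blocks 1 to 4 the pooled one was 0.53, -0.18, 0.29 and 0.36. Only 1 of the 13 was above 1 in all 4 blocks. Ecsit, an assembly factor of the membrane arm, had a ratio of 1.42 and was above 1 in all 4 blocks, and Ndufaf6 had 1.54. Tmem126b, a partner of Ecsit in the same assembly complex, had 0.710. Of 26 assembly factors of complexes II to V, 11 were higher and 13 lower, and their median was -0.00. Uqcc1, an assembly factor of complex III, had 0.699 and was below 1 in every block.

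The mobile carriers between the complexes gave counts in both directions. Of 13 genes for cytochrome c, cytochrome c1 and coenzyme Q synthesis, 4 were higher and 7 lower, and the median was -0.08. Cyc1, the cytochrome c1 subunit that the name patterns leave out, had a ratio of 1.13 and was above 1 in all 4 blocks, and Cycs, cytochrome c itself, had 0.949. The lowest pooled ratios were 0.445 for Coq6 and 0.545 for Coq10b, both of coenzyme Q metabolism and both below 1 in every block, with 0.803 and 0.585 by equal weights. Among 17 genes of the tricarboxylic acid cycle and pyruvate dehydrogenase, 7 were higher and 6 lower, at a median of 0.01, beside the 4 of 4 higher in complex II. Idh2 had the highest ratio at 1.95, but 0.634 in set 1, and Pdha1, of pyruvate dehydrogenase, the lowest at 0.753.

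The 76 mitochondrial ribosomal protein genes, which serve the translation of the chain's mitochondrial subunits, had 36 higher and 35 lower, with a median of 0.04. Carriers and import genes had 14 of 24 higher and 7 lower, with a median of 0.09 and with Hspa9, the matrix chaperone of import, at 1.69 but 0.878 in set 1. Of 8 other accessory or regulatory genes, 6 were higher and 2 lower. Chchd10, a protein of the intermembrane space, had a ratio of 1.37 and Usmg5, a small ATP synthase subunit under another name, 1.31, and both were above 1 in all 4 blocks. Higd1a, linked to the hypoxic response of complex IV, had 0.828.

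Regulators known to control respiratory genes went both ways, with 4 of 13 expressed genes higher, 7 lower and a median of -0.03. Tfam, which packages and transcribes mitochondrial DNA, stood at 38 pooled CPM in experiment and 23.4 in control libraries, a ratio of 1.62, or 2.00 by equal weights. The coactivators Ppargc1a and Ppargc1b had pooled ratios of 1.46 and 2.40 and 1.39 and 1.41 by equal weights. The first had 0.941 in set 1, and neither was on the same side in all 4 blocks. Tfb2m, a mitochondrial transcription factor, had 0.494 pooled and 0.680 by equal weights and was below 1 in every block. Nrf1, whose motif is printed above, had 7.19 CPM in experiment and 12.5 CPM in control libraries, a ratio of 0.574. Its ratio was 0.204 in set 1 and 0.937 in set 2. Neither Nrf1 nor Tfam was on the same side in all 4 blocks. All of these were low transcripts, and their ratios rest on few counts per neuron.

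The promoter motifs were searched on both strands in the window from 250 bases before to 50 after the start, in the first window RefSeq lists for each gene, found for 65 of the 76 expressed members. The NRF1 core motif CGCATGCG was in 8 of the 65 (12.3%), against 1.91% of all 27025 windows and 4.57% of the windows of 7327 expressed genes. The GABPA motif CCGGAAGT was in 5 (7.69%), against 4.00% of all windows and 9.36% of those of expressed genes. The YY1 motif AAGATGGC was in 10 (15.4%), against 2.88% and 5.49%, mostly after the start and so outside the stretches printed. The 8 members with the NRF1 motif were Atp5g2, Cox6a1, Ndufa8, Uqcr11, Atp5l, Atp5k, Uqcrc1 and Ndufa11, whose log2 ratios ran from 0.66 for Atp5g2 to 0.01 for Ndufa11. Genes with the same motif thus lay both at the top and in the lower portion of the range. The median log2 ratio was 0.07 with the NRF1 motif and 0.22 without, 0.24 with and 0.18 without the GABPA motif, and 0.24 with and 0.18 without the YY1 motif.

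**Figure D5:**
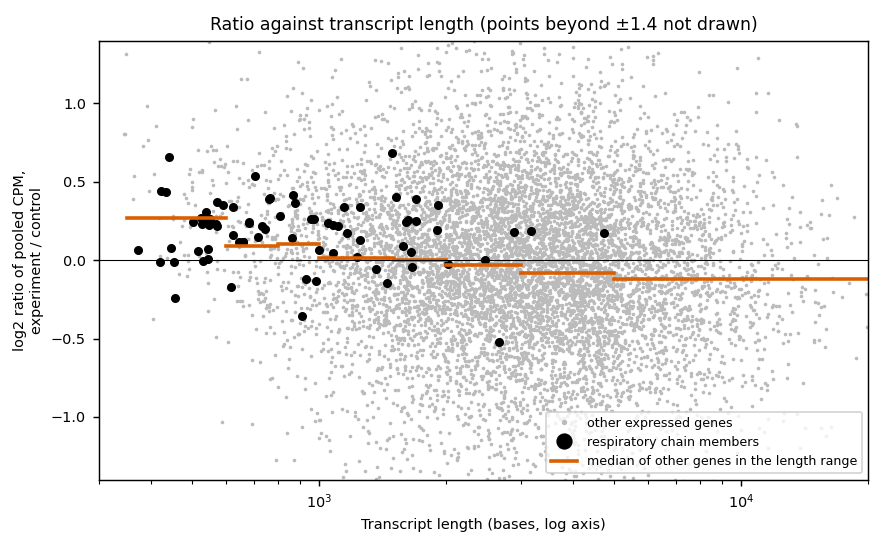
Log2 ratio of pooled CPM, experiment over control, against transcript length (log axis) for the members (black) and the other expressed genes (grey), with the median of the other genes in each length range (bars). The bars leave out cytosolic ribosomal protein genes, which the grey points include. Other genes under 600 bases lie at 0.27 in the median and those of 5000 bases and over at -0.12.

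The members are short, and among the other genes the ratio was higher in short transcripts. In these comparisons the other genes leave out the cytosolic ribosomal protein genes, which are short and had a median log2 ratio of 0.51. The median transcript length was 809 bases for 75 expressed members and 3065 bases for 8488 other expressed genes. Other genes shorter than 600 bases had a median log2 ratio of 0.27, and the 23 members of that length 0.23. From 600 to 800 bases the medians were 0.21 for 14 members and 0.09 for the other genes, and from 800 to 1000 bases 0.26 for 9 members and 0.11 for the other genes. From 1000 to 1500 bases they were 0.18 for 13 members and 0.02 for the other genes, and from 1500 to 2000 bases 0.25 for 10 members and 0.00 for the other genes. Among the shortest genes, therefore, the members did not stand above the other genes. In the next 4 length ranges their pooled median was higher than that of the other genes, ribosomal protein genes left out. With equal weights the medians under 600 bases were 0.09 for the members and 0.15 for the other genes. In the next 4 ranges they were 0.14 and 0.09, 0.10 and 0.07, 0.13 and 0.00, and 0.27 and 0.00. From 800 to 1000 bases the gap was small, with 5 of 9 members higher by both weightings against 53.1% of the other genes. Spearman's rho between length and log2 ratio was -0.09 over the members and -0.10 over the other genes with pooled counts. With equal weights it was 0.19 over the members, the opposite sign, and -0.08 over the other genes, and genes are not independent replicates. The part of length in the members' ratio was not tested beyond these ranges.

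The order of the members by level was nearly the same in both groups. Per kilobase of transcript, the 75 members with a length ranged from 43.7 to 2172 CPM in experiment libraries and from 27.2 to 1895 in control libraries, with medians of 283 and 239, and Spearman's rho between the groups' levels was 0.98. The 3 highest, Cox4i1, Atp5b and Atp5o, were the same in both. Median levels per kilobase were highest in complex IV, at 485 CPM in experiment and 493 in control libraries, and lowest in complex II, at 181.8 and 168.7.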

How the data were processed

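The authors deposited counts, unnormalized whole numbers for each gene symbol, in 104 libraries. The submitters' processing notes name STAR 2.5.3a, featureCounts 1.5.3 and mm10 but give them no role or order. The annotation, the strand setting and the handling of reads with several possible origins are not given in the sources used. The 92 ERCC spike-in rows were kept out of totals, and every library passed minimums of 50000 gene counts and 1000 genes.

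Counts were summed per gene and group and divided by the summed gene counts (pooled CPM, exact Poisson 95% interval; ratios with the interval of the exact binomial split). A sum under 3 counts was raised to 3. Reads without molecular identifiers are not independent molecules, so these intervals cover counting error only. Groups came from the titles. As the labels name no animal, no test between groups was made; the calculation was tested on simulated data. Members and lists were chosen with earlier results of these data known. Members were named by rank of ratio within each complex, by role, or by direction in all blocks; 1 member counted in the totals is not reported here by itself. Positions and lengths are from GENCODE vM21 (GRCm38), for 83 of the 84 members; length is that of the lowest-numbered principal coding transcript. Scaling alternatives used edgeR 4.0.16 (TMM) and DESeq2 1.42.0 (size factors) in R 4.3.3; the rest used Python 3.11.15, pandas 2.3.3 and scipy 1.17.1.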

Additional observations from a re-analysis of the deposited data

How the results depend on the processing

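The medians were recomputed under 23 alternatives and the count of higher members under 20 of them. Of 158 comparisons, 135 kept their direction and stayed within the median's interval over the members (for the number of members higher, within 1.5 times), 20 moved further and 3 changed sign. In all of these settings the members' median lay above that of all expressed genes, by 0.10 to 0.47 (log2). The pooled log2 median of all members, 0.22, became 0.13 with equal weights, 0.092 as mean log2(CPM + 1) and 0.068 as the ratio of median CPM; the last 2 scales move all genes to -0.38 and -0.25. It was 0.14 with each gene's highest library per group left out, 0.12 in title set 2, 0.29 in block 2, 0.047 in block 4, 0.24 with glial-rich libraries left out and 0.34 among libraries low in ERCC share. It was 0.12 without the library of each group highest in ribosomal protein share and 0.11 without experiment library 21, both chosen after seeing the data. Complex I had 0.056 by median CPM, 0.24 by DESeq2 size factors, 0.24 with totals free of mitochondrial and ribosomal genes, 0.28 in block 2, -0.020 in block 4, 0.24 without glia-rich libraries, 0.38 at low ERCC share and 0.070 among libraries with more genes detected (chosen after seeing the data). Complex II had -0.015 among the same libraries, complex IV 0.024 by median CPM and 0.40 at low ERCC share, and complex V -0.015 in block 4; the causes were not tested. TMM moved all genes to -0.10, the members to 0.15 and the count of higher members to 50; over its 20 alternatives that count ran from 39 to 68. No paired analysis was possible because each group counts as 1 sample, the results come from no test, and the shared title numbers are not tied to any animal. Intervals over members describe these genes and not new neurons; depth limits the isoforms under 10 CPM, for which absence of counts is not absence of transcript.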
